A study of Mus musculus with 2 samples.

Results

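The cells described here are barcodes of the mouse ventral parafacial region that carried transcripts of the cholinergic genes and a large share of the nuclear RNA *Malat1*. A barcode was included when it held at least 1 UMI of at least 2 of *Chat*, *Slc18a3* and *Slc5a7*, no UMI of *Slc32a1*, at most 2 UMIs of *C1qa*, *C1qb*, *Cldn5* and *Flt1* together, and when *Malat1* supplied at least 3% of its UMIs. A UMI (unique molecular identifier) stands for 1 captured transcript. Of 12395 barcodes with at least 800 detected genes, at most 50 hemoglobin UMIs and at most 20% mitochondrial UMIs, 151 met these criteria. They comprised 38 of 3345 barcodes (1.14%) in the untreated library and 113 of 9050 (1.25%) in the 4OH-tamoxifen library. The members were thus chosen by measured values, namely the UMIs of these genes in both libraries, so their level of *Malat1* and of the 3 cholinergic genes is a description and supports nothing further.

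Tissue of the ventral parafacial region was dissociated from C57BL6/J mice, 10 days old, and the single cells were profiled with droplet-based 10x v2 chemistry. Each of the 2 libraries pooled 8 mice (4 male and 4 female), and single animals cannot be recovered from the counts. The untreated library was labelled WT. The 4OH-tamoxifen library came from mice of the same strain injected with 0.2 mg of 4OH-tamoxifen daily for 3 days. With 1 library per condition, treatment, mice, batch and preparation cannot be told apart and no statistical test was possible. The untreated library held 18496942 UMIs in 3767 barcodes, and the 4OH-tamoxifen library 34704167 UMIs in 10241 barcodes. The libraries had 40 barcode sequences in common (1.06% of the untreated ones), none of them among the 151. Intervals given in brackets are exact 95% intervals and cover counting error only.

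Cholinergic neurons make acetylcholine with choline acetyltransferase, the product of *Chat*, load it into vesicles with the transporter encoded by *Slc18a3*, and recover choline through the transporter encoded by *Slc5a7*. In the ventral brainstem, the motor neurons of the facial nucleus, which drive the muscles of the face, are a major cholinergic population. Motor neurons are known for the transcription factor *Isl1* and the intermediate filament peripherin (*Prph*), which is abundant in neurons that send axons to the periphery. *Malat1* is a long noncoding RNA retained in the nucleus and abundant in most cell types, and RNA of isolated nuclei is rich in it.

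Positions of *Malat1* and the 3 cholinergic genes are given in the GRCm38 assembly. *Malat1* is at chr19:5795690-5802672 on the minus strand. *Chat* spans chr14:32408203-32465989 on the minus strand, and *Slc18a3* (chr14:32462438-32464850) lies inside that span on the same strand. How reads of the shared stretch were assigned was not examined. *Slc5a7* is at chr17:54273590-54299034 on the minus strand.

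The barcodes were examined with 5 markers outside the selection rule, *Isl1*, *Prph*, *Miat*, *Rgs11* and *Col4a2*. These markers were given for this group with earlier results of these data known. Their detection is therefore a description and no independent evidence of motor neuron identity. At least 3 of the 5 markers were detected in 25 of 38 untreated and 77 of 113 4OH-tamoxifen barcodes (65.8% and 68.1%), 102 in all. The share was 66.7% and 76.9% among the cholinergic barcodes with *Malat1* under 3%. It was 2.41% and 3.45% among inhibitory barcodes, 14.7% and 11.7% among glutamatergic barcodes, and 0.273% and 0.157% among microglia. A further 16 held 1 or 2 of the markers. The remaining 33, 10 untreated and 23 from the 4OH-tamoxifen library, held none. For these 33 the data went against the name of cholinergic neurons, as described next, and the 151 are therefore called high-*Malat1* cholinergic barcodes by their rule.

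**Figure D1:**
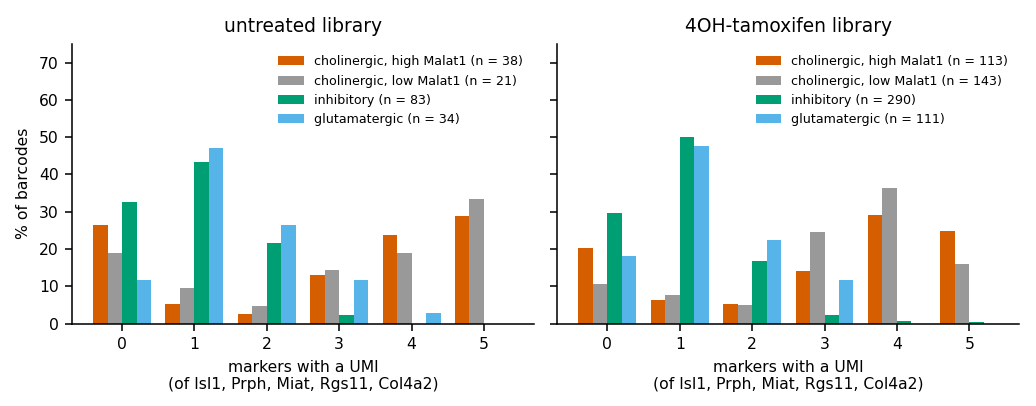
Number of the 5 markers *Isl1*, *Prph*, *Miat*, *Rgs11* and *Col4a2* detected per barcode (x axis) against the percent of barcodes of each group (bars, y axis), with 1 panel per library. The high-*Malat1* cholinergic barcodes are most frequent at 4 and 5 markers and again at 0, whereas inhibitory barcodes sit mostly at 0 to 2.

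The 33 barcodes with no marker held little neuronal RNA and more glial RNA. As a description, 27 of them held exactly 2 UMIs of the 3 cholinergic genes, which the rule used, as did 21 of the 102 with at least 3 markers. *Meg3*, a long noncoding RNA abundant in neurons, reached 177 and 1147 CPM (UMIs of the gene per 1000000 UMIs summed over the group, with the untreated library first, here and below) in them, compared with 49055 and 42307 CPM in the 102 with at least 3 markers. *Snhg11*, another neuronal noncoding RNA, was at 0 and 223 CPM against 10472 and 8327 CPM. The glial markers described below went the other way, by different amounts in the 2 libraries. The median share of oligodendrocyte UMIs per barcode was 1.59% and 2.9% in the 33 against 1.35% and 1.06% in the 102. The median share of astrocyte UMIs was 0.709% and 0.239% against 0.110% and 0.104%. The median share of mitochondrial UMIs was 9.22% in the 33 and 4.40% in the 102, and their median depth was 2971 and 3754 UMIs.

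Glial transcripts were measured per barcode as the share of UMIs from lists of oligodendrocyte, oligodendrocyte precursor and astrocyte markers. The limit for each list was its 95th percentile in the microglia barcodes of the same library, a cell type that should lack all 3 lists (3.2% and 4.21% for oligodendrocyte markers, 0.0867% and 0.172% for precursor markers, 0.326% and 0.539% for astrocyte markers). All 33 barcodes without a marker exceeded at least 1 limit, as did 9 of the 16 with 1 or 2 markers and 10 of the 102 with 3 or more. In total 16 of 38 untreated (42.1%) and 36 of 113 4OH-tamoxifen barcodes (31.9%) were above a limit. Among low-*Malat1* cholinergic barcodes the share was 33.3% (7 of 21) and 11.2% (16 of 143). Of the 19 low-*Malat1* barcodes without a marker, 14 were above a limit, 4 of 4 untreated and 10 of 15 4OH-tamoxifen barcodes. Among microglia, some above their own percentile by construction, the share was 13.4% and 14.4%. It was 4.82% and 7.24% among inhibitory barcodes and 5.88% and 9.01% among glutamatergic barcodes. The doublet caller Scrublet marked 0 untreated and 13 4OH-tamoxifen members, 5 of them among the 33. It marked only 6 barcodes (0.159%) of the whole untreated library, too few to be read as a count of doublets. In the 4OH-tamoxifen library the marked share was 11.5% in members and 5.44% in all filtered barcodes. There it was 9.42% in microglia, 7.24% in inhibitory and 6.31% in glutamatergic barcodes, and 3 of 143 low-*Malat1* barcodes were marked. Whether the marked members were doublets was not tested. The part of glial RNA in the results below was not tested. Without the barcodes above a limit, the members' levels of *Prph*, *Isl1*, *Miat* and *Meg3* were higher. This step removed all 33 barcodes without a marker, so the rise of *Prph*, *Isl1* and *Miat* follows in part from it. *Prph* went from 1674 and 1260 to 2737 and 1751 CPM, *Isl1* from 124.8 and 165 to 197.5 and 242 CPM, *Miat* from 1690 and 1592 to 2643 and 2248 CPM, and *Meg3* from 31538 and 30693 to 50715 and 42387 CPM. The levels below are those of all 151 unless stated.

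**Figure D2:**
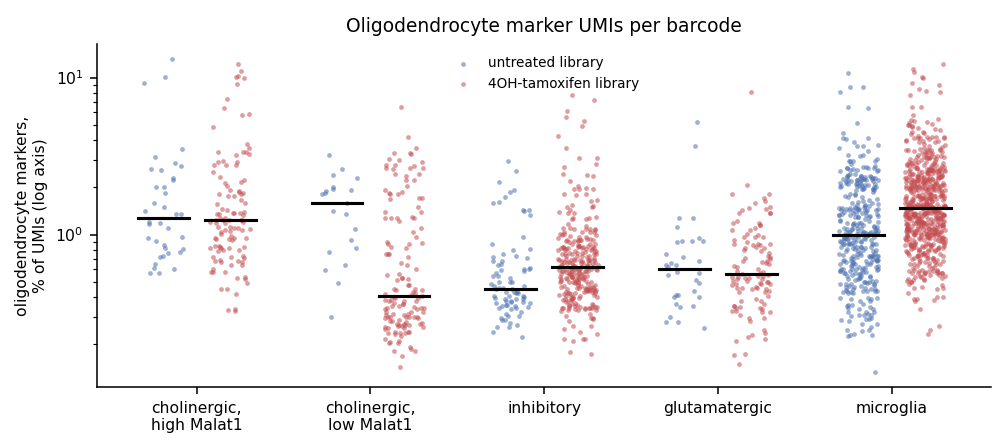
Percent of UMIs from the 8 oligodendrocyte markers (y axis, log scale) by group of barcodes (x axis), with 1 point per barcode, colour for the library and a line at each median. High-*Malat1* cholinergic barcodes had medians of 1.28% and 1.24% and a tail that reached 13.0% and 12.3%, while the low-*Malat1* barcodes had medians of 1.59% and 0.404%.

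A *Malat1* share of 3% or more was common in the tissue. It was met by 61.6% and 67.2% of all filtered barcodes, by 90.9% and 94.8% of oligodendrocyte barcodes (those with at least 5% oligodendrocyte UMIs) and by 93.5% and 90.8% of astrocyte barcodes (those with at least 1% astrocyte UMIs). Among inhibitory barcodes, taken by at least 2 UMIs of *Slc32a1*, it was met by 13.3% [6.81–22.5] and 25.2% [20.3–30.6]. Among glutamatergic barcodes, taken by at least 2 UMIs of *Slc17a6*, the shares were 23.5% [10.8–41.2] and 39.6% [30.5–49.4]. Among cholinergic barcodes the shares were 64.4% [50.9–76.5] and 44.1% [38–50.5], or 38 of 59 and 113 of 256.

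The distribution of *Malat1* had no gap at the threshold. The members just inside held 3.04% and 3.02%, and the cholinergic barcodes just outside held 2.95% and 2.94%. In the untreated library 3 barcodes lay between 3% and 3.5% and 2 between 2.5% and 3%, and in the 4OH-tamoxifen library 14 lay on each side. The median share was 6.21% and 7.37% in the members, with maxima of 23.6% and 30.7%. In the low-*Malat1* cholinergic barcodes, of which there were 21 and 143, it was 1.89% and 0.736%.

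**Figure D3:**
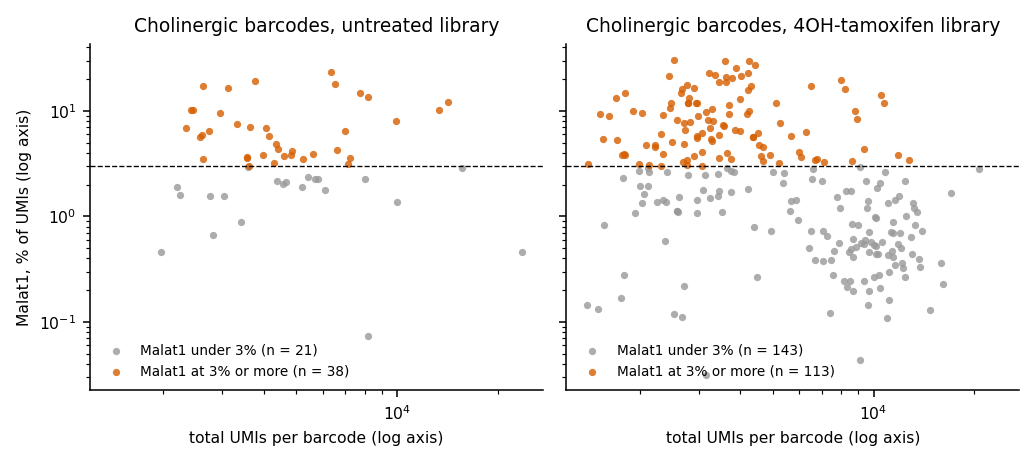
Percent of UMIs from *Malat1* (y axis, log scale) against UMIs per barcode (x axis, log scale) for the cholinergic barcodes of each library, with the 3% threshold as a line. Points run through the threshold without a gap, and in the 4OH-tamoxifen library the barcodes below it are deeper, with a median of 8466 UMIs against 3294 above it.

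Depth and mitochondrial share differed more between high- and low-*Malat1* barcodes in the 4OH-tamoxifen library than in the untreated one. In the untreated library the high- and low-*Malat1* barcodes had median depths of 4222 and 4648 UMIs, 2358 and 2575 genes, and 5.65% and 6.05% mitochondrial UMIs. In the 4OH-tamoxifen library the medians were 3294 against 8466 UMIs, 1812 against 3414 genes, and 5.12% against 12.7% mitochondrial UMIs. Every comparison of high with low *Malat1* below contains this difference, and its part in them was not tested.

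The cholinergic genes were sparse, as the selection allows. All 3 were detected in 9 untreated and 25 4OH-tamoxifen members, and exactly 2 in 29 and 88. *Chat* had a UMI in 16 of 38 and 60 of 113 members, *Slc18a3* in 32 and 89, and *Slc5a7* in 37 and 102. The levels were 119.6 and 178 CPM for *Chat*, 307 and 393 CPM for *Slc18a3*, and 458 and 622 CPM for *Slc5a7*. In the low-*Malat1* barcodes *Slc18a3* stood at 488 and 939 CPM and *Slc5a7* at 875 and 1695 CPM, above the members in both libraries, whereas *Chat* stood at 85.1 and 72.4 CPM, below them. *Slc10a4*, a vesicular transporter found in cholinergic and monoaminergic neurons that the selection did not use, was at 98.8 CPM [59.5–154] and 176 CPM [139.5–220] in the members.

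Compared with the other neurons, some motor neuron genes and most of the long noncoding RNAs and myelin genes compared were higher in the members, and some genes of synaptic vesicles were lower. Members were compared with the 83 and 290 inhibitory and the 34 and 111 glutamatergic barcodes. A gene counted as past 2-fold when the ratio of its summed CPM, with 10 CPM added to both groups, was at least 2 in all 4 contrasts. Of 4080 genes compared, 289 were higher in the members (7.08%) and 333 lower (8.16%). The 12 genes with the largest smallest ratio were *Prph*, *Isl1*, *Chodl*, *Chat*, *Slc18a3*, *Calcb*, *Ahnak2*, *9530059O14Rik*, *Anxa2*, *Col23a1*, *A330069E16Rik* and *Miat*, of which *Chat* and *Slc18a3* were used in the selection. Without the barcodes above a glial limit, 401 genes were higher and 292 lower, and 200 of the 289 and 236 of the 333 remained.

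Peripherin led this list. *Prph* (chr15:99055174-99058978, plus strand) reached 1674 CPM [1496–1867] in members of the untreated library and 1260 CPM [1158–1368] in those of the 4OH-tamoxifen library, against 12.6 and 34.7 CPM in inhibitory and 66.1 and 47.6 CPM in glutamatergic barcodes. It was detected in 68.4% and 76.1% of members and in 7.65% and 17.7% of microglia, which should lack it. After each barcode was thinned to 2000 UMIs, which left out 0 and 12 members, *Prph* was detected in 65.8% and 73.3%. In microglia it stood at 19.3 and 70.2 CPM, so the members lay well above this background of free RNA in both libraries.

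*Isl1*, which encodes a LIM-homeodomain factor required for motor neuron formation, was nearly absent from the other neurons. It was at 124.8 CPM [80.0–186] and 165 CPM [129.6–207] in members, 0 and 2.08 CPM in inhibitory and 0 and 3.52 CPM in glutamatergic barcodes (chr13:116298281-116309689, minus strand). It was detected in 39.5% and 42.5% of members and in 0.273% and 1.26% of microglia. Of the members with *Isl1*, 15 of 15 untreated and 46 of 48 4OH-tamoxifen barcodes also had *Prph*, which was present in 26 of 38 and 86 of 113 members in all.

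The 3 other markers were also past 2-fold over both neuron groups. *Miat*, a nuclear long noncoding RNA (chr5:112213228-112229395, minus strand), stood at 1690 and 1592 CPM in members, 111 and 192 CPM in inhibitory and 153 and 270 CPM in glutamatergic barcodes. *Rgs11*, which encodes a regulator that speeds the shut-off of G protein signals (chr17:26202951-26211324, plus strand), stood at 416 and 286 CPM against 28.0 and 29.2 CPM and 48.1 and 58.1 CPM. *Col4a2*, a chain of the basement membrane collagen type IV (chr8:11312805-11449287, plus strand), stood at 213 and 241 CPM against 15.4 and 20.8 CPM and 27.1 and 42.3 CPM. They were detected in 71.1% and 72.6% (*Miat*), 65.8% and 55.8% (*Rgs11*) and 44.7% and 53.1% (*Col4a2*) of members.

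**Figure D4:**
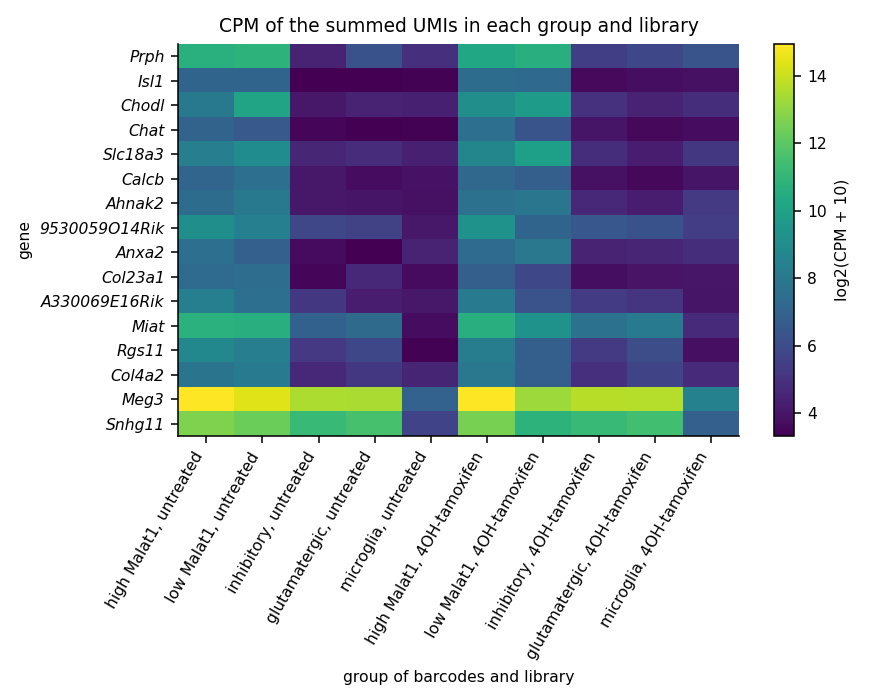
Heat map of log2(CPM + 10), with CPM of the summed UMIs, for the 12 leading genes against other neurons and for *Rgs11*, *Col4a2*, *Meg3* and *Snhg11* (y axis) in each group and library (x axis), where brighter colours are higher levels. *Prph*, *Isl1*, *Miat*, *Rgs11* and *Col4a2* are brighter in the high- and low-*Malat1* cholinergic barcodes than in the inhibitory, glutamatergic and microglia barcodes of both libraries.

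Of 9 genes of motor neuron subtypes compared, 2 were higher in members (*Chodl* and *Calcb*) and 1, the vesicle protein gene *Sv2a*, lower. *Chodl*, a marker of fast motor neurons, was at 249.6 and 519.7 CPM in members and at most 21.5 CPM in the other neurons, and was detected in 42.1% and 47.8% of members. *Calcb*, which encodes a calcitonin gene-related peptide, was at 130 and 138 CPM and at most 7.0 CPM in the other neurons. *Spp1*, osteopontin, a marker of large alpha motor neurons, was at 109 and 154 CPM in members and did not pass 2-fold against both neuron groups. Neither did the trophic factor receptor genes *Ret* (124.8 and 124.9 CPM) and *Gfra1* (119.6 and 174 CPM), whereas *Lifr*, the receptor for leukemia inhibitory factor, did at 104.0 and 93.7 CPM.

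Of 26 motor neuron transcription factor genes, 5 were abundant enough to compare and 3 were past 2-fold, all higher in members. Beside *Isl1* these were *Onecut2* (109 and 145 CPM) and *Ebf1* (114 and 114 CPM). *Onecut2* stood at 149 and 176 CPM in oligodendrocyte barcodes too. No UMI was found for 9 of the factors, among them *Isl2*, *Mnx1* and *Lhx3* of spinal motor neurons. With 3 barcodes taken as the limit that a count of 0 allows, up to 7.89% of 38 and 2.65% of 113 barcodes could hold a UMI.

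Markers of other neurons were low. *Gad1*, which encodes a GABA-synthesising enzyme, was at 5.20 and 2.23 CPM. *Slc17a6*, the vesicular glutamate transporter gene, was at 5.20 and 4.46 CPM. *Slc32a1* was 0 by the rule. The summed microglia list was at 187 and 123 CPM and the endothelial list at 104 and 76 CPM, both held low by the rule.

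Long noncoding RNAs were higher in members as a list, with 7 of 9 genes compared past 2-fold against both neuron groups and none lower. *Malat1* itself is fixed by the rule. The other 6 were *Miat*, *Meg3*, *Mirg*, *Snhg11*, *Xist* and *Gm26917*. *Meg3* reached 31538 and 30693 CPM against 11880 and 13436 CPM in inhibitory and 11466 and 12930 CPM in glutamatergic barcodes. *Snhg11* reached 6728 and 6060 CPM against 2292 and 2266 CPM and 2972 and 2707 CPM. *Xist*, the RNA of the inactive X chromosome in females, was at 920 and 700 CPM against at most 302 CPM, and since males and females were pooled its share of female cells in each group is unknown.

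Neurofilament and axon genes went both ways, and 10 of 21 synaptic vesicle and release genes were lower and 0 higher. Among 14 neurofilament and axon genes, *Prph*, *Nefl* and *Nefm* were higher in members, whereas *Ina*, *Gap43* and *Stmn3* were lower. *Nefl*, the light neurofilament subunit, stood at 2932 and 2311 CPM in members, 341 and 662 CPM in inhibitory and 601 and 985 CPM in glutamatergic barcodes. *Syp*, synaptophysin, stood at 151 and 310.0 CPM against 1037 and 1167 CPM and 1175 and 1266 CPM. *Syt1*, the calcium sensor of release, stood at 52.0 and 58.0 CPM against at least 231 CPM in the other neurons.

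Other lists held a few genes each. Of 5 collagen and basement membrane genes compared, *Col4a1*, *Col4a2* and *Agrn*, which encodes the agrin that motor axons use to cluster acetylcholine receptors on muscle, were higher and *Col25a1* lower. *Agrn* was at 374 and 332 CPM in members and at most 107 CPM in the other neurons. Of 80 genes of nuclear-encoded oxidative phosphorylation, 6 were lower, a share near the 8.16% of all genes, and 0 higher, and of 7 sodium channel genes 3 were lower (*Scn3a*, *Scn2b* and *Scn3b*) and 0 higher. All 8 oligodendrocyte markers compared were higher in members, and their sum was 33415 and 26783 CPM against 5803 and 10343 CPM in inhibitory barcodes. Without the barcodes above a glial limit that sum was 13591 and 12156 CPM in members.

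The high- and low-*Malat1* cholinergic barcodes both carried the given markers, and most of the largest ratios between the groups were those of myelin genes. As *Malat1* split the groups, this contrast is the rule's own and is described without a test. Of 4183 genes compared, 100 were past 2-fold higher in the members in both libraries (2.39%) and 137 lower (3.28%). The median log2 ratio over all genes was −0.17 (untreated) and −0.02 (4OH-tamoxifen). None of the 6 given markers passed 2-fold in both libraries. Their median log2 ratio was 0.07 in untreated but 1.16 in 4OH-tamoxifen barcodes, where 4 of the 6 were past 2-fold. *Miat* was at 1690 and 1592 CPM in high- against 1540 and 597 CPM in low-*Malat1* barcodes (ratios 1.10 [0.917–1.31] and 2.67 [2.4–2.97]). *Rgs11* had ratios of 1.38 [0.928–2.08] and 2.75 [2.12–3.56], *Col4a2* 0.810 [0.502–1.32] and 2.28 [1.74–2.98], and *Chat*, a gene of the rule, 1.41 [0.658–3.19] and 2.47 [1.79–3.4]. *Isl1* and *Prph* were within 2-fold in both libraries. *Isl1* was at 124.8 and 165 CPM in high- against 123.8 and 148 CPM in low-*Malat1* barcodes, with ratios of 1.01 [0.514–2.03] and 1.11 [0.834–1.47]. *Prph* ratios were 0.928 [0.782–1.10] and 0.791 [0.718–0.870].

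The 12 genes with the largest ratio of high over low included *Malat1*, *Mog*, *Mal*, *Apod*, *Tspan2*, *Gjb1*, *Trf*, *Gsn*, *Mag* and *Opalin*, most of them genes of myelin and oligodendrocytes. *Mog*, a myelin surface protein, stood at 806 and 457 CPM in high- against 147 and 59.7 CPM in low-*Malat1* barcodes. *Mal*, a membrane protein of myelin, stood at 936 and 330.0 CPM against 38.7 and 56.1 CPM. Of 8 oligodendrocyte markers compared, 6 were higher and 0 lower, with median log2 ratios of 2.09 and 2.48. Of 7 astrocyte markers, *Aqp4*, *Gja1*, *Slc1a3* and *Slc7a10* were higher. The median share of oligodendrocyte UMIs per barcode was 1.28% in high- and 1.59% in low-*Malat1* barcodes of the untreated library, so there the higher sums rested on a tail of barcodes, whereas in the 4OH-tamoxifen library the median was also higher, at 1.24% against 0.404%.

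Barcodes above a glial limit were also set aside, an alternative chosen after seeing the data. As the limit is set on these same marker lists, it lowers their sums by construction, and the values for them are a description. It kept 22 of 38 and 77 of 113 members, and 14 of 21 and 127 of 143 low-*Malat1* barcodes. Of 4203 genes then compared, 105 were higher (2.5%) and 148 lower (3.52%), and 23 of the 100 higher and 83 of the 137 lower genes remained past 2-fold. None of the 7 oligodendrocyte and 6 astrocyte markers then compared was past 2-fold in both libraries. In the 4OH-tamoxifen library alone the oligodendrocyte list kept a median log2 ratio of 1.1 (untreated 0.36), and *Mbp* stood at 7483 against 3233 CPM, *Mobp* at 1022 against 387 CPM, *Mag* at 429 against 152 CPM and *Cldn11* at 402 against 182 CPM there. The sum of the oligodendrocyte markers stood at 13591 and 12156 CPM in members against 10673 and 5751 CPM.

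*Malat1* was the 1 gene common to the 12 leading genes with and without these barcodes. The 12 without them were *Malat1*, *Gm26699*, *Igf2bp3*, *5330434G04Rik*, *Loxl2*, *Tmem245*, *Kdm6b*, *Slit2*, *Xist*, *Rbm4b*, *Zcchc7* and *Iqgap1*. *Igf2bp3*, which encodes an mRNA-binding protein, stood at 282 and 221 CPM in members against 59.0 and 13.2 CPM. *Slit2*, a secreted axon guidance cue that motor neurons make, stood at 517 and 358 CPM against 177 and 135 CPM. *Xist* stood at 931 and 688 CPM against 366 and 99.3 CPM.

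**Figure D5:**
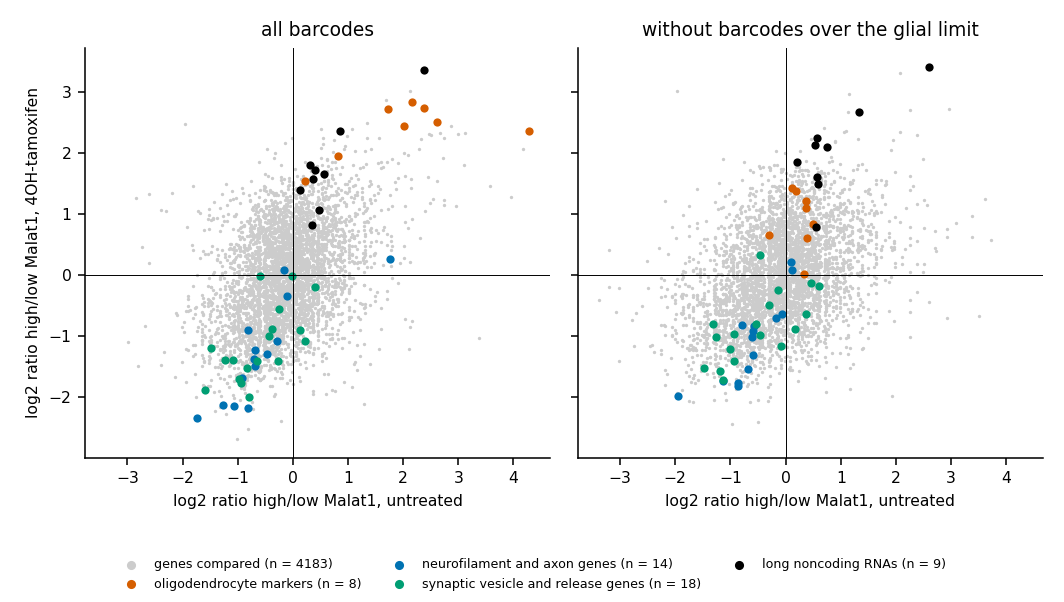
Log2 ratio of high- over low-*Malat1* cholinergic barcodes (10 CPM added) in the untreated library (x axis) against the 4OH-tamoxifen library (y axis), 1 point per gene for the 4183 genes compared, with 4 gene lists in colour, for all barcodes (left) and without barcodes above a glial limit (right). Most oligodendrocyte markers lie at the upper right on the left panel and nearer to 0 on the right panel, and most neurofilament, axon and synaptic vesicle genes lie below 0 in both.

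Genes lower in the high-*Malat1* barcodes included some of the neurofilament, axon and vesicle genes. The 12 with the largest ratio were *Pja2*, *Tubb3*, *Wfs1*, *Cadps*, *Syp*, *Nptn*, *Tomm70a*, *Spock1*, *Pgm2l1*, *Tubb5*, *Atp6v1a* and *Tmem255a*. *Tubb3*, the neuron-specific tubulin, stood at 291 and 466 CPM in high- against 991 and 2407 CPM in low-*Malat1* barcodes. *Syp* stood at 151 and 310.0 CPM against 472 and 1166 CPM. *Nefl* stood at 2932 and 2311 CPM against 6122 and 10280 CPM, and *Nefm*, the medium neurofilament subunit, at 1076 and 1146 CPM against 2616 and 5028 CPM.

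By list, 3 of 14 neurofilament and axon genes (*Nefl*, *Nefm* and *Tubb3*) and 4 of 18 synaptic vesicle genes (*Syp*, *Vamp1*, *Sv2b* and *Sv2c*) were lower and 0 higher, beside 3.28% lower among all genes compared. The median log2 ratios were −0.70 and −1.33 for the neurofilament and axon list and −0.63 and −1.29 for the vesicle list. *Slc10a4* was the 1 cholinergic gene of 8 past 2-fold in both libraries, at 98.8 and 176 CPM against 279 and 520 CPM. Where the mitochondrial share was limited to 10%, only 48 genes were lower, 19 of them among the 137, and the log2 ratio of *Tubb3* turned from −1.73 to 0.25 in the untreated library but stood at −2.42 in the 4OH-tamoxifen library. 

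The medians of some lists differed between the 2 libraries, which was not tested. The 9 long noncoding RNAs had median log2 ratios of high over low of 0.39 among untreated and 1.65 among 4OH-tamoxifen barcodes. For example *Meg3* stood at 31538 against 21175 CPM in the former and 30693 against 9751 CPM in the latter, and *Kcnq1ot1*, an antisense nuclear RNA, at 598 against 480 CPM and 473 against 127.5 CPM. The ribosomal protein list was taken by the gene name prefixes *Rpl* and *Rps*, which also bring in kinase genes such as *Rps6kb1*. Its 85 genes compared had medians of −0.51 and 0.77, with 0 past 2-fold in both libraries. The medians were 0.05 and 0.63 over the 84 compared without barcodes above a glial limit, where the directions were no longer opposite. In the 4OH-tamoxifen library the low-*Malat1* barcodes were the deep ones with 12.7% mitochondrial UMIs.

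Within the members, barcodes with a larger *Malat1* share had a lower summed level of neurofilament RNA. Members of each library were divided into tertiles of their *Malat1* share (13, 13 and 12 untreated, 38, 38 and 37 4OH-tamoxifen barcodes). From the lowest to the highest tertile *Nefl* stood at 5189, 2445 and 1440 CPM in the untreated library and at 3504, 2064 and 1237 CPM in the 4OH-tamoxifen library. The median share of oligodendrocyte UMIs per barcode was 1.21%, 1.59% and 1.03% and 1.09%, 1.35% and 1.11%. *Miat* went in the direction of *Nefl*, from 2913 to 598 CPM and from 1807 to 1324 CPM. *Meg3* did not keep 1 direction, as it went from 44063 to 22164 CPM in the untreated library and from 28685 to 33125 CPM in the 4OH-tamoxifen library. Across barcodes of 1 library, which share their preparation, Spearman's rho of the *Malat1* share with the neurofilament and axon list was −0.50 (n = 38) and −0.21 (n = 113) and with the oligodendrocyte list −0.04 and −0.01. As *Malat1* is part of the total to which each gene is scaled, and these groups come from the measure the selection used, the values are a description.

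Members of the 2 libraries were compared last, with 1 library per condition. Of 4732 genes, 120 were past 2-fold higher in the 4OH-tamoxifen members (2.54%) and 167 lower (3.53%), and none of the 6 given markers was past 2-fold. The 6 genes with the largest ratio upward were *Npy*, *Calca*, *Spock1*, *Peli1*, *Gpr17* and *1810043H04Rik*, and downward *Bpifc*, *Klk6*, *Junb*, *Cd27*, *Apod* and *Gadd45g*. Some of these rested on 1 barcode. *Npy* had no UMI in untreated members, and against the floor of 3 UMIs over the group it was at least 3.58-fold higher in 4OH-tamoxifen members, but all 25 UMIs came from 1 barcode. *Bpifc* had none in 4OH-tamoxifen members and was at least 19.4-fold higher in untreated ones, again with all 25 UMIs in 1 barcode.

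*Calca*, which encodes a calcitonin gene-related peptide and calcitonin, was at 72.8 against 422 CPM (ratio 5.79 [3.37–10.8]). However, 1 barcode held 84.1% of its UMIs in the 4OH-tamoxifen library, and it was detected in 23.7% of untreated and 12.4% of 4OH-tamoxifen members. *Klk6* stood at 114 and 8.92 CPM, with 95.5% of the untreated UMIs in 1 barcode, and *Apod* at 754 and 214 CPM, with 66.9%. *Junb*, an immediate early gene, was at 130 and 22.3 CPM and was found in 13 untreated and 9 4OH-tamoxifen members, and the same gene stood at 1423 and 651 CPM in microglia. *Fos*, another immediate early gene, was at 57.2 and 11.2 CPM, on 11 and 5 UMIs. *Chodl* was at 249.6 and 519.7 CPM, a ratio of 2.08 [1.52–2.9].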

How the data were processed

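The authors demultiplexed and counted the reads with bcl2fastq 2.18.0.12 and Cell Ranger 2.2.0 against mm10, per the submitters' processing notes. The deposited counts are raw UMI counts per gene and barcode, not normalized, for 28692 genes. Barcodes were filtered and selected as stated in the report, and no doublets were removed: Scrublet (scanpy 1.11.5) calls were an alternative. The members and gene lists were chosen with earlier results of these data known. UMIs were summed per group and library and scaled to CPM with Poisson intervals, shares got Clopper-Pearson intervals, and ratios exact conditional intervals (scipy 1.17.1). Genes compared needed at least 50 CPM in the higher group of every library compared, and those named for the largest ratios also 20 UMIs. Groups needed at least 10 barcodes. Named genes were those of the 37 lists that describe a list, the 12 largest ratios in each direction against low-*Malat1* barcodes, the 12 largest over other neurons and the 6 largest in each direction between libraries. *Fos*, *Chodl* and *Kcnq1ot1* are list genes. Gene positions are from GENCODE on GRCm38. The summing and calls were tested on simulated data. The 2 libraries permit no test across samples. Alternatives changed thresholds, filters, scaling, added CPM and fold. Values of some named genes are not reported here.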

Additional observations from a re-analysis of the deposited data

Results flagged for a closer look

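Between high- and low-*Malat1* cholinergic barcodes, 34 of 4183 genes (0.813%) were past 2-fold in opposite directions in the 2 libraries. Of those, 7 are among the named or listed genes, and each difference was not tested. The log2 ratio in the 4OH-tamoxifen library minus that in the untreated library was 4.42 for *Calca* (−1.95 in untreated, 2.47 in 4OH-tamoxifen), 4.11 for *Gpr17* (−2.85 and 1.26) and 3.93 for *Peli1* (−2.60 and 1.33). It was −3.39 for *Sst* (1.28 and −2.11), −2.91 for *Nts* (1.08 and −1.83), −2.56 for *Gabbr2* (1.10 and −1.45) and −2.55 for *Kcnq3* (1.22 and −1.33). In members, 1 barcode held 84.1% of the *Calca* UMIs in the 4OH-tamoxifen library. Without barcodes above a glial limit *Peli1* was no longer lower in untreated members, at 28.2 against 23.6 CPM (85.2 against 43.5 CPM in 4OH-tamoxifen barcodes). *Gpr17* then stood at 0 against 11.8 CPM and at 51.1 against 28.4 CPM. *Calca*, *Sst*, *Nts*, *Gabbr2* and *Kcnq3* kept opposite directions.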

How the results depend on the processing

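No paired analysis was possible because each condition has 1 library and no result comes from a test. The 5 choices of leaving out barcodes above a glial limit, requiring 3 markers, requiring 1% *Malat1* in the low group, comparing with other neurons at 3% *Malat1* or more and taking each library alone were made after seeing the data. The number of high-*Malat1* cholinergic barcodes, 151, became 34 with all 3 cholinergic genes required and 99 without barcodes above a glial limit. Genes past 2-fold between high and low *Malat1*, 237, became 121 with at most 10% mitochondrial UMIs (60.3% of them higher, against 42.2%), 116 with the mean of each barcode's CPM (55.2% higher), 772 at 1.5-fold, 40 at 3-fold (80% higher), 78 with at least 1% *Malat1* in the low group (68.0% higher), 989 in the untreated library alone and 1199 in the 4OH-tamoxifen library alone. With all 3 cholinergic genes they became 1257 in the 4OH-tamoxifen library only, since 9 untreated members were left, and the libraries could not be compared. Against other neurons, 622 became 1284 at 1.5-fold, 175 at 3-fold, 364 with other neurons at 3% *Malat1* or more (over 3 contrasts, since only 8 untreated glutamatergic barcodes were left) and 1414 in the untreated library alone. Without barcodes above a glial limit 57.9% of the genes were higher, against 46.5%. Between libraries, 287 became 535 at 4% *Malat1*, 467 with 1 CPM added, 788 at a minimum of 20 CPM, 1180 at 1.5-fold, 35 at 3-fold, 675 without barcodes above a glial limit and 530 with 3 markers. Fewer barcodes entered several of these counts, and the cause of the others was not tested.

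Some log2 ratios of high over low turned in 1 library, given first for untreated and then for 4OH-tamoxifen barcodes. With at most 10% mitochondrial UMIs *Tubb3* stood at 0.25 and −2.42 and *Nptn* at 0.47 and −1.59, and with at least 1% *Malat1* in the low group at 0.11 and −1.67 and at 0.40 and −1.41. Without barcodes above a glial limit *Mog* stood at −0.30 and 0.66, *Gjb1* at 0.76 and −0.28 and *Opalin* at −0.22 and 1.11, and only *Gsn* of these turned in both libraries, at −1.07 and −0.62. With 3 markers *Mog* stood at −0.54 and 1.79, *Trf* at −1.33 and 1.37, *Gsn* at −0.64 and 0.71, *Mag* at −0.13 and 1.85 and *Opalin* at −0.39 and 1.94, so the untreated library alone turned. Between libraries *Klk6* gave 1.02 and 0.98 under these choices, but with 0 CPM in untreated and 10.2 and 9.68 CPM in 4OH-tamoxifen members these values are set by the 10 CPM added and show no direction. *Apod* turned to 0.56 with 3 markers. Of the other ratios of named genes 804 moved by less than 1 on the log2 scale and 44 by more, and of the shares of members with a gene 131 stayed within their interval and 29 did not.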

Other observations

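Further lists held few genes past 2-fold between the high-*Malat1* cholinergic barcodes and both other neuron groups, beside 7.08% higher and 8.16% lower among all 4080 genes compared, and nothing is read from counts this small. Of 7 voltage-gated calcium channel genes compared, *Cacna1h*, a T-type channel gene, was past 2-fold, at 93.6 and 66.9 CPM in members, on 18 and 30 UMIs, and at most 12.5 CPM in inhibitory and glutamatergic barcodes. Of 17 potassium and pacemaker channel genes, *Kcna1*, a low-threshold potassium channel gene, was higher and *Kcna6*, *Kcnc1* and *Nalcn* lower. *Kcna1* stood at 161 and 174 CPM in members, and at 142 and 132 CPM in oligodendrocyte barcodes. Of 15 GABA and glycine receptor genes, 3 were lower (*Gabra3*, *Gabbr1* and *Glrb*) and 0 higher.

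Among 5 neuropeptide genes compared, *Calcb* and *Nts* were higher in members and *Sst* lower. *Nts*, neurotensin, stood at 109 and 62.4 CPM in members and at most 12.3 CPM in the other neurons, and was detected in 26.3% and 16.8% of members. *Sst*, somatostatin, stood at 52.0 and 17.8 CPM in members, on 10 and 8 UMIs, against 1429 and 854 CPM in inhibitory barcodes. *Htr2c*, a serotonin receptor gene, was lower in members, at 26.0 and 53.5 CPM against at least 176 CPM in the other neurons. *Tbx20*, a factor of branchial and visceral motor neurons, was too sparse to compare, at 20.8 CPM [5.67–53.2] and 13.4 CPM [4.91–29.1] in members.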
